A study of Mus musculus with 4 samples.

Results

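The chaperone genes of the mouse array were examined in RNA immunoprecipitation (RIP) samples, in which RNA was recovered from brain lysate with an antibody to CPEB2 or with a control antibody and measured on microarrays. The comparison asks which RNAs come down with CPEB2 beyond the background of the control IgG. Members were taken by gene symbol, with earlier results of these data known: symbols of the HSP70 (Hspa), HSP90 (Hsp90), HSP60 and HSP10 (Hspd1, Hspe1), small heat shock protein (Hspb), J-domain (Dnaja, Dnajb, Dnajc) and CCT chaperonin (Cct2 to Cct8, Tcp1) families. They came to 80 of the 24185 genes with a symbol and to 116 of the 55681 distinct probes. The lysate was of cortex and hippocampus from 8-week-old male C57BL/6 mice, for which the labels give no altered allele and no drug. It was divided between beads carrying CPEB2 IgG and beads carrying control IgG for 3 hours, and each antibody has 2 arrays. Arrays of CPEB2 IgG and control IgG that share a replicate number form an experiment. How many mice each lysate pooled is not given in the sources used here, no array of unprecipitated lysate was analysed, and whole tissue was lysed, so that in a signal fewer cells holding an RNA and less of it per cell cannot be told apart. Both antibodies of an experiment met the same lysate.

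Chaperones bind unfolded or partly folded proteins and prevent them from aggregating. HSP70 proteins hold exposed hydrophobic stretches in a cycle driven by ATP, J-domain proteins (DNAJA, DNAJB and DNAJC) bring clients to HSP70 and start its ATP hydrolysis, and HSP90 acts later on kinases and receptors. The CCT chaperonin is a ring-shaped complex of the cytosol that folds actin and tubulin, HSP60 with its lid HSP10 does similar work in mitochondria, and small heat shock proteins hold clients without ATP. Neurons, which do not divide, rely on these systems to clear misfolded proteins. CPEB2 is an RNA-binding protein that recognises the cytoplasmic polyadenylation element (CPE), UUUUAU or UUUUAAU, in the 3′-untranslated region of mRNAs and controls their translation.

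Signals are given as the scanner software reported them, in arbitrary units. Well above background were 68.4% to 74.1% of spots, saturation was not seen, and precision is limited by the number of arrays. A difference is the log2 signal with CPEB2 IgG minus that with control IgG, after each array was scaled to its own 75th percentile, so it is relative to the rest of the RNA on the array. Values after ± are the SD of the differences in the 2 experiments (n = 2). Adjusted p-values are from limma with the experiment as a block and Benjamini-Hochberg adjustment over 19695 genes, and a gene was called below 0.05. A single gene tested alone by exact permutation of 2 against 2 arrays, with the experiments ignored, could not go below a two-sided p of 0.333. Keeping the pairing leaves fewer arrangements and a higher limit. The arrays of each antibody lay in their own positions of 1 slide, so position and antibody cannot be told apart.

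RNA of every CCT chaperonin gene tested and of the cytosolic Hspa8, Hspa1a and Hsp90aa1 was lower with CPEB2 IgG than with control IgG, and RNA of 7 of 9 listed chaperones of the endoplasmic reticulum (ER) was higher. Of the 80 chaperone genes 74 could be tested, and 13 were higher and 26 lower with CPEB2 IgG. Over all genes tested, 21.2% were called higher and 20.4% lower. Among the chaperone genes tested the shares were 17.6% and 35.1%, and their median difference was -0.50 against -0.11 over all genes. The 6 genes not tested, Cct8l1, Dnajb7, Dnajb13, Dnajc5g, Dnajc22 and Hspb7, had no probe well above background on at least 2 arrays, and none of their signals exceeded 19.1. The count of higher genes depended on single arrays: it was 8 without CPEB2 IgG array 2, 7 without control IgG array 1 and 8 without control IgG array 2, in fits without the replicate block, where the lower counts were 25, 19 and 21. In every fit that left out an array, 7 of the 13 higher and 19 of the 26 lower calls remained.

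**Figure D1:**
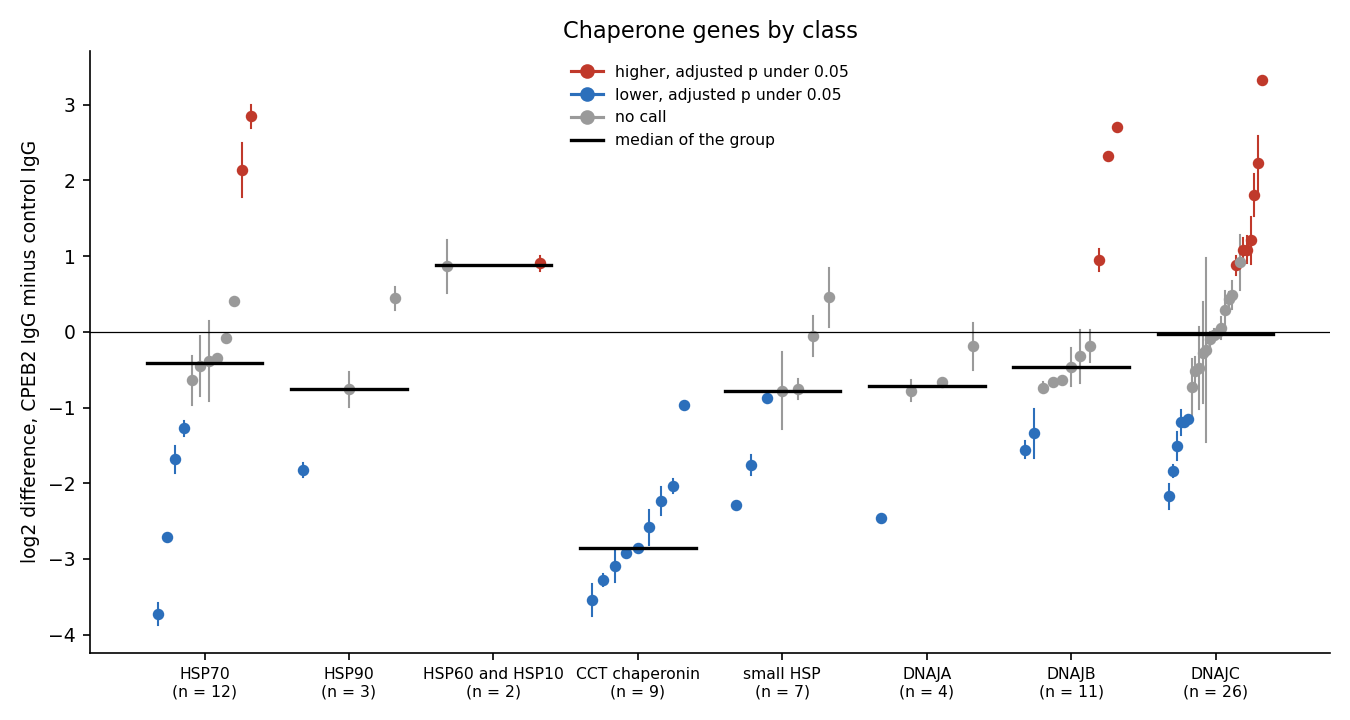
Log2 difference between CPEB2 IgG and control IgG of the 74 tested chaperone genes by class, 1 point per gene at the mean of the 2 experiments, with a line joining the values of the experiments and a black bar at the median of each class. All 9 CCT genes lie below 0, whereas HSP70, DNAJB and DNAJC hold both genes above 2 and genes below -1.

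The class medians ran from -2.86 to 0.88, a spread that was not tested. The median difference was -2.86 in the CCT chaperonin, -0.78 in the small heat shock proteins, -0.76 in HSP90, -0.72 in DNAJA, -0.47 in DNAJB, -0.42 in HSP70, -0.028 in DNAJC and 0.88 in the HSP60 and HSP10 pair. In CCT 9 of 9 tested genes were lower. In HSP70 2 of 12 were higher and 4 lower, in HSP90 0 of 3 were higher and 1 lower, and in DNAJA 0 of 4 were higher and 1 lower. In DNAJB 3 of 11 were higher and 2 lower, in DNAJC 7 of 26 were higher and 6 lower, in the small heat shock proteins 0 of 7 were higher and 3 lower, and of Hspd1 and Hspe1 the latter was higher. The sign of the DNAJC median, which lay close to 0, changed with the scaling and with the array left out.

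The 2 experiments gave 63 of the 74 chaperone genes the same sign, 85.1%, against 79.7% of all genes tested. The gene farthest from agreement was Dnajc19, a J-domain partner of the mitochondrial import motor, whose signals were 2049 and 2824 after CPEB2 IgG against 5949 and 1456 after control IgG. Control IgG array 1 alone was high, and the difference was -1.45 in experiment 1 and 0.98 in experiment 2. A second Dnajc19 probe, on another transcript, gave 1.30 with signals of 3079 and 3155 after CPEB2 IgG against 1409.98 and 1223 after control IgG, higher on both CPEB2 IgG arrays. Without control IgG array 1 the difference at the first probe was 0.75.

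**Figure D2:**
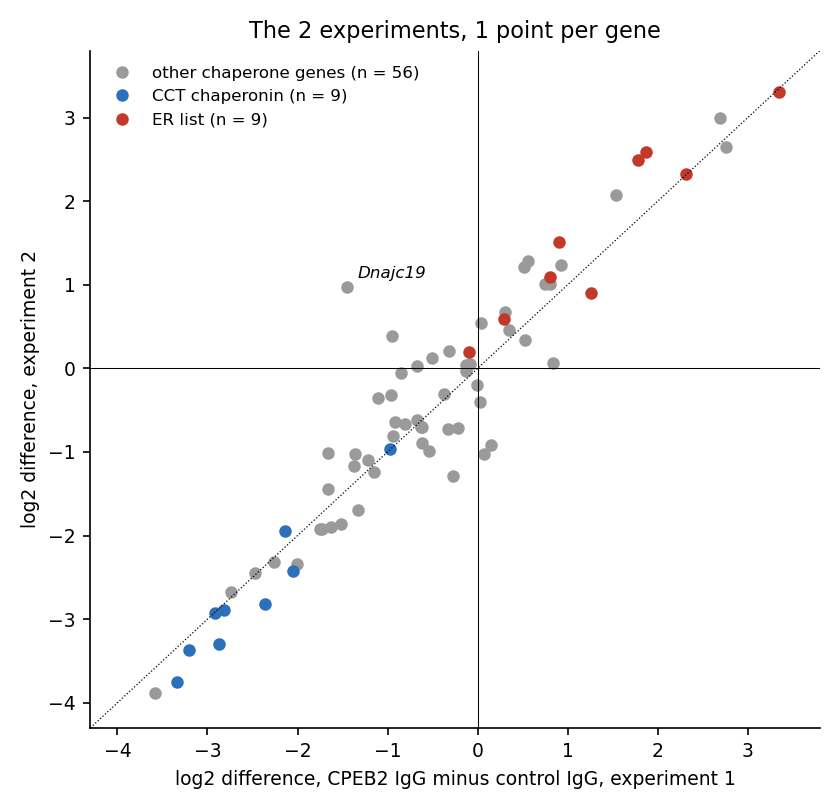
Log2 difference of each tested chaperone gene in experiment 1 (horizontal axis) and experiment 2 (vertical axis), with the CCT chaperonin and the ER list coloured and the dotted line marking equal values. The CCT genes lie below 0 on both axes, 8 of the 9 ER genes lie above 0 on both, and Dnajc19 lies farthest from the line.

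All 9 tested CCT chaperonin genes were lower with CPEB2 IgG. Each ring of this complex is built of different subunits, encoded by Tcp1 and Cct2 to Cct8, with Cct6a and Cct6b as alternatives for the same position. The 8 subunit genes other than Cct6b gave 762 to 21103 with control IgG and 78 to 2819 with CPEB2 IgG. The signals of Cct5 (NM_007637, probe at chr15:31520643-31520702 of mm9, from base 1705 of the transcript) were 2819 and 2519 after CPEB2 IgG against 21103 and 19044 after control IgG. Both CPEB2 IgG arrays were far below both control IgG arrays, by 7.25-fold on average. The difference was -2.86 ± 0.052 (95% interval -3.46 to -2.25, limma adjusted p = 0.00542).

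The largest difference in the complex was at Cct3, with signals of 143 and 181 after CPEB2 IgG against 1524 and 2482 after control IgG and a difference of -3.54 ± 0.30, or 11.7-fold lower. Cct6a followed with -3.28 ± 0.11, from signals of 78 and 83.2 after CPEB2 IgG against 762 and 870.3 after control IgG. The smallest difference among the 8 was that of Cct2, -2.04 ± 0.13, with signals of 2046 and 2724 after CPEB2 IgG against 9520.5 and 10683 after control IgG. The 95% interval was -4.20 to -2.89 for Cct3 and -2.65 to -1.43 for Cct2, and the difference between subunits was not tested. The remaining subunits lay between them: Cct4 at -2.58 ± 0.32, Cct7 at -3.09 ± 0.30, Cct8 at -2.92 ± 0.0087 and Tcp1 at -2.24 ± 0.27. The limma adjusted p-values of the 8 genes ran from 0.00542 to 0.006. Cct6b, the subunit known from testis, gave 15.1 and 13.3 after CPEB2 IgG against 31.3 and 26.4 after control IgG. It was not well above background on either CPEB2 IgG array. Set against the dimmest probe detected on each of those arrays it was 1.68-fold lower, a value without an error of its own. With normexp, another background correction, its difference was -0.15. In the main fit its difference was -0.97 (95% interval -1.57 to -0.37, limma adjusted p = 0.0286). That call was lost without CPEB2 IgG array 2, without either control IgG array and under several other settings.

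**Figure D3:**
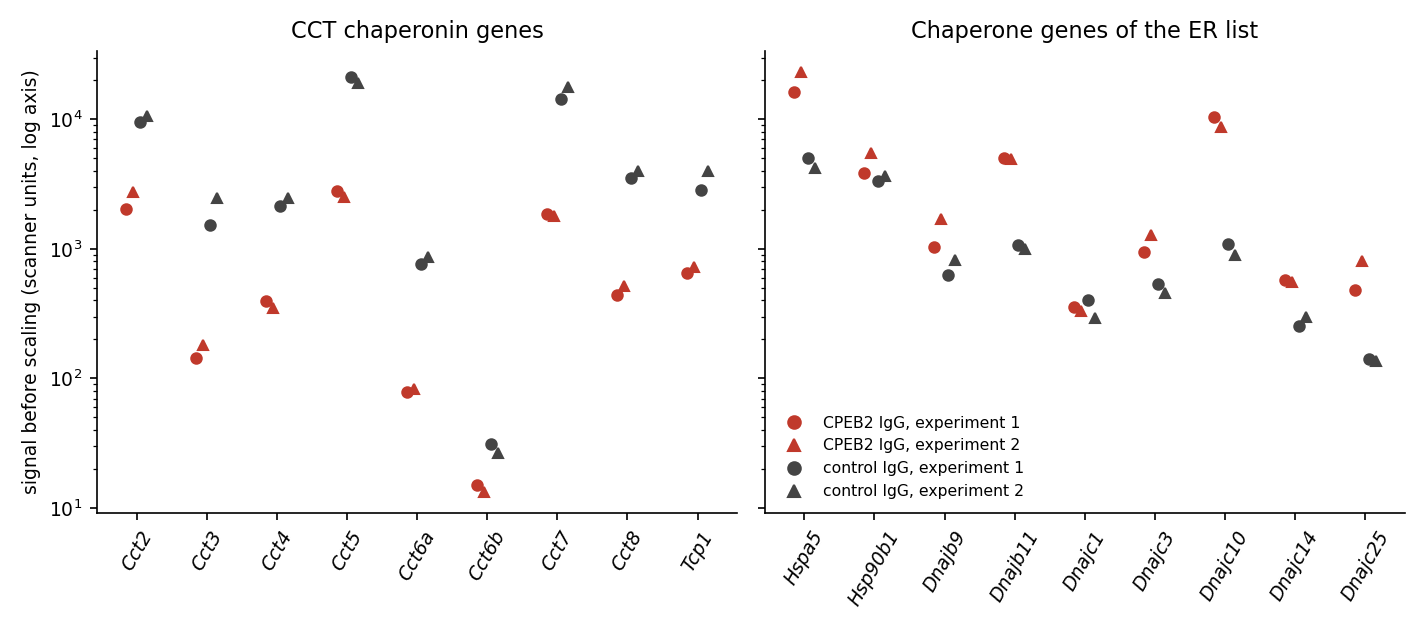
Signal before scaling on each of the 4 arrays (log axis) for the 9 tested CCT genes (left) and the 9 chaperone genes of the ER list (right), red for CPEB2 IgG and grey for control IgG, circles for experiment 1 and triangles for experiment 2. In the left panel every red symbol lies below the grey symbols of its gene, and in the right panel the red symbols lie above the grey ones except for Dnajc1. How often the antibodies separate in this way over all genes is not given here.

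The G+C content of the probes moved with the differences over the whole array. The median difference was 0.52 over the 5153 genes whose probe had at most 35% G+C and -0.59 over the 3207 genes at 50% or more. The part of this trend in single genes was not tested, and values after centring within 10 bins of G+C content are therefore given beside the classes that moved. The CCT median was -2.58 after that centring, with 8 of 9 genes called lower, since Cct6b was no longer called. Over the chaperone genes it gave 15 higher and 32 lower calls.

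Among the cytosolic HSP70 genes, a constitutive and an inducible form were both lower with CPEB2 IgG, and of the cytosolic HSP90 genes the inducible form was. Hspa8 (NM_031165, probe at chr9:40613223-40613282) encodes HSC70, the constitutive HSP70 that uncoats clathrin vesicles at synapses. Its brightest probe gave 24774 and 27090.4 after CPEB2 IgG against 174869 and 176550 after control IgG, and its difference was -2.71 ± 0.039, 6.54-fold lower (limma adjusted p = 0.00542). Both CPEB2 IgG arrays were far below both control arrays, also at the other Hspa8 probes, whose differences were -3.43 and -3.55. Hspa1a, a stress-inducible HSP70, gave 29.5 and 35.2 after CPEB2 IgG against 374 and 526 after control IgG. Its difference was -3.73 ± 0.21, 13.3-fold lower (limma adjusted p = 0.00542). At these dim CPEB2 IgG signals the size depended on the background correction: with normexp, a model of signal over background, it was -2.26, still called lower. Hspa1a has a near-identical neighbour, Hspa1b, and Hspa8 has many processed copies in the genome, so the probes may not separate these transcripts.

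Hspa2, an HSP70 first known for its role in sperm and also present in brain, gave 1452 and 1062 after CPEB2 IgG against 4388 and 3920.04 after control IgG, a difference of -1.69 ± 0.25 (limma adjusted p = 0.00845). Hspa12b, a distant HSP70 relative of endothelial cells, was lower by a smaller margin at its brightest probe, -1.27 ± 0.14 (limma adjusted p = 0.0149). Its second detected probe gave 0.021, and the call was lost without CPEB2 IgG array 2, without control IgG array 1 and when the probes were averaged. The HSP110 genes, which act as exchange factors for HSP70, were not called: Hspa4 gave -0.64 ± 0.46 and Hspa4l -0.34 ± 0.053. For Hspa4 the 95% interval was -1.36 to 0.077, and a probe further upstream in the same transcript gave -1.93. With all arrays Hspa4 was called lower after centring on G+C content, at -1.31, with normexp, with probes averaged and with an intensity trend. Hspa4 was called lower without CPEB2 IgG array 2. Hspa12a, Hspa14 and Hspa1l lay between -0.45 and 0.41 and were not called. After centring on G+C content Hspa12a was at -1.12 and called lower.

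Hsp90aa1, the inducible cytosolic HSP90, gave 15049 and 13879 after CPEB2 IgG against 52829.5 and 53312 after control IgG, with no overlap between the antibodies. Its difference was -1.82 ± 0.13, 3.54-fold lower (limma adjusted p = 0.0069). The constitutive Hsp90ab1 gave 80622 and 59116 after CPEB2 IgG against 123907 and 119062 after control IgG. Both CPEB2 IgG arrays were below both control arrays here too, but the difference of -0.76 ± 0.32 (95% interval -1.42 to -0.10) did not pass the test (limma adjusted p = 0.0686). It did pass without CPEB2 IgG array 1, and under 4 other settings. After centring on G+C content, Hspa8 was at -3.38, Hspa1a at -3.22, Hsp90aa1 at -2.49 and Hsp90ab1 at -0.30.

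Most listed chaperones of the ER were higher with CPEB2 IgG. The ER list, made from where the proteins are known to reside and with earlier results known, held 9 members, of which 7 were higher, 0 lower and 2 not called. Its median was 1.21, and 8 of the 9 were above 0 in both experiments. The 65 tested chaperone genes outside this list held 6 higher and 26 lower calls, with a median of -0.66. Without control IgG array 1, 4 of the ER genes remained called (Hspa5, Dnajb11, Dnajc10 and Dnajc25).

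Hspa5 (NM_022310, probe at chr2:34631913-34631972, from base 2479) encodes BiP, the HSP70 of the ER and the sensor-bound regulator of the unfolded protein response. Its signals were 16229.8 and 23287 after CPEB2 IgG against 4996 and 4194 after control IgG. Both CPEB2 IgG arrays exceeded both control arrays, and the difference was 2.14 ± 0.50, 4.41-fold higher (limma adjusted p = 0.00725). Dnajb11, a BiP partner that binds clients directly, gave 5008 and 4930.01 after CPEB2 IgG against 1067 and 998 after control IgG. These pairs were nearly equal within each antibody, and the difference was 2.32 ± 0.0093 (limma adjusted p = 0.00542). Dnajc10 (NM_024181, probe at chr2:80194153-80194212) encodes ERdj5, a J-domain protein that reduces disulfide bonds before degradation. It had the largest difference of all chaperone genes, 3.33 ± 0.032, from signals of 10489 and 8709 after CPEB2 IgG against 1089 and 895 after control IgG, or 10.04-fold higher (limma adjusted p = 0.00542).

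Dnajc25, a J-domain protein with a membrane anchor, gave 486 and 806 after CPEB2 IgG against 141 and 136 after control IgG, a difference of 2.23 ± 0.51. Dnajc3, known as p58IPK, a co-chaperone of BiP and inhibitor of the kinase PERK, gave 949 and 1289 after CPEB2 IgG against 538 and 458 after control IgG, a difference of 1.21 ± 0.44 (limma adjusted p = 0.0247). Dnajc14, which holds the dopamine D1 receptor in the ER, was at 1.09 ± 0.25 and Dnajb9, the BiP co-chaperone ERdj4 that restrains IRE1, at 0.95 ± 0.20 (limma adjusted p = 0.025 and 0.0339). Both calls depended on single arrays. The call of Dnajb9 was lost in the fit without the replicate block (adjusted p = 0.0765) and without CPEB2 IgG array 2 or either control array, that of Dnajc14 without CPEB2 IgG array 2 or control IgG array 1, and that of Dnajc3 without either control array. The uncalled members were Hsp90b1, the ER form of HSP90 known as GRP94, at 0.44 ± 0.22 (95% interval -0.19 to 1.07) and Dnajc1, a J-domain protein of the ER membrane that contacts ribosomes, at 0.055 ± 0.21. After centring on G+C content the same number of the list, 7 of 9, was called higher, and the median was 1.38. Dnajc10 was then at 2.66, Dnajc25 at 1.56, Hspa5 at 1.47, Dnajb9 at 0.86 and Hsp90b1 at 0.36, all nearer 0 than before. Farther from 0 were Dnajb11 at 2.63, Dnajc3 at 1.38, Dnajc14 at 1.25 and Dnajc1 at 0.36.

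Hspa13, an HSP70 relative bound to microsomes, was not on the ER list and was singled out after its value was seen. It gave 5151 and 7325 after CPEB2 IgG against 842 and 935 after control IgG, both CPEB2 IgG arrays far above both control arrays. Its difference was 2.84 ± 0.21, 7.18-fold higher (limma adjusted p = 0.00542), and a second probe gave 1.27. After centring on G+C content Hspa13 was at 2.18. The list also lacked Dnajc16 and the ER membrane proteins Dnajb12, Dnajb14 and Dnajc18. With these 5 genes added, a choice made after the data were seen, 9 of 14 were higher and 1, Dnajb12, was lower, with a median of 1.15. Dnajb14 was at -0.47 ± 0.36 and Dnajc18 at 0.43 ± 0.13, both without a call.

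As 7 of the 9 ER list genes were called higher, the promoters were searched for the ER stress response element (ERSE), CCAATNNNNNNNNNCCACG, the site through which ATF6 and its partner NF-Y raise ER chaperone genes in the unfolded protein response. RefSeq promoters of GRCm38.p6, from 250 bases before to 50 after the start site, were read on both strands. Of the chaperone genes 65 had such a promoter under their symbol. The element was in 3 of the 9 ER list genes and 0 of the 56 others, and in 37 of all 27025 genes with a promoter (0.137%). The matches are printed because they mark which ER genes carry the element, with the searched motif in capitals and the free bases inside it included, each 30 bases long and read 5′ to 3′ on the strand named.
Hspa5, chr2:34772019-34772048, plus strand: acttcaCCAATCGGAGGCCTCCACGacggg
Dnajc3, chr14:118937821-118937850, plus strand: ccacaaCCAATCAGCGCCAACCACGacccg
Hsp90b1, chr10:86705527-86705556, plus strand: aactcaCCAATCGTGCCTCACCACGcactc
Hsp90b1, chr10:86705633-86705662, minus strand: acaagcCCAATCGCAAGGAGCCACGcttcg
Hspa5 and Dnajc3 were called higher and Hsp90b1 was not, and Dnajb11, Dnajc10 and Dnajc25 were higher without this exact sequence in the window. A match describes the letters of the promoter, and the absence of these letters says nothing about the factor. The site is known from ER chaperone genes, so its presence in the ER list was not a test. Both antibodies of an experiment met the same lysate, and a part of the element in the differences was not tested.

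The mitochondrial chaperones were called in both directions. The list of 9 held 1 higher gene, 3 lower genes and 5 without a call, with a median of -0.52. Hspe1, which encodes the HSP10 lid, gave 18249 and 18640.5 after CPEB2 IgG against 11087 and 9441 after control IgG. Its difference was 0.90 ± 0.14 (limma adjusted p = 0.0367), and its other probes gave 1.35 and 0.97, but the call was lost without CPEB2 IgG array 2 or either control array. Hspd1, which encodes the HSP60 ring, gave 26300.1 and 38944 after CPEB2 IgG against 19481 and 17079 after control IgG, all CPEB2 IgG signals again above the control ones. Its difference of 0.86 ± 0.49 missed the threshold (limma adjusted p = 0.0655), passed it without CPEB2 IgG array 1, and was 0.20 after centring on G+C content.

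Hspd1 and Hspe1 lie head to head and share a promoter, which held the heat shock element GAANNTTCNNGAA in these 30 bases of GRCm38.p6, capitals marking the motif.
Hspd1, chr1:55088051-55088080, minus strand: ggccttccgGAAGGTTCTAGAAcggaccgt
This arrangement of heat shock factor sites was searched on both strands and was in 0.662% of the 27025 genes with a promoter and in 3 of the 65 chaperone genes, the third being Dnajb6. It was in 0 of the 9 CCT promoters and 0 of the 9 ER promoters.

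Hspa9, the mitochondrial HSP70 known as mortalin, gave 3739 and 3996 after CPEB2 IgG against 4336 and 4136 after control IgG, close together for both antibodies (difference -0.079 ± 0.073, 95% interval -0.68 to 0.53). Its J-domain partner Dnaja3 was at -0.78 ± 0.20 without a call (limma adjusted p = 0.0563), and was called lower without CPEB2 IgG array 2. With all arrays Dnaja3 was called lower under quantile normalization, without scaling, with normexp and under further settings. The 3 lower genes were Dnajc15, a regulator of the import motor, at -1.84 ± 0.12 from signals of 1782 and 1545 after CPEB2 IgG against 6369.8 and 5947 after control IgG, Dnajc30, which binds the ATP synthase, at -1.51 ± 0.26, and Dnajc11, a partner of the cristae-organising complex, at -1.19 ± 0.23. The limma adjusted p-values were 0.00682, 0.0109 and 0.0191. Dnajc11 has a probe printed 10 times on each array, whose spots varied with an SD of 0.041 to 0.079 on the log2 scale, small against its SD between experiments. The call of Dnajc11 was lost without either control IgG array and when its probes, which ranged from -1.19 to 0.073, were averaged.

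The DNAJA genes encode the J-domain proteins closest to bacterial DnaJ, which pair with HSC70 in the cytosol or, for Dnaja3, in mitochondria. Dnaja1 (NM_001164671) gave 2461 and 2625 after CPEB2 IgG against 14429 and 14598 after control IgG and was 5.5-fold lower with CPEB2 IgG, -2.46 ± 0.012 (limma adjusted p = 0.00542). The arrays of each antibody were nearly equal and far apart from the other's. Dnaja2 was at -0.19 ± 0.45 and Dnaja4 at -0.66 ± 0.057, both without a call. A second and dimmer Dnaja4 probe gave -2.41, and Dnaja4 was called lower when its probes were averaged and under 6 other settings. After centring on G+C content all 4 DNAJA genes were called lower, with a median of -1.38.

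Dnajb5, a J-domain protein closely related to Dnajb1, was the only gene of the aggregation-linked list to be called. That list holds 5 J-domain genes whose proteins refold or sequester aggregating proteins. The signals of Dnajb5 (NM_019874, probe at chr4:42971494-42971553) were 58459 and 44586 after CPEB2 IgG against 9164 and 7212 after control IgG, both CPEB2 IgG arrays far above both control arrays. Its difference was 2.70 ± 0.074, 6.52-fold higher (limma adjusted p = 0.00542), and 2.04 after centring on G+C content. Dnajb1, the heat-inducible HSP40, gave 9229.8 and 9591 after CPEB2 IgG against 15110.4 and 15854 after control IgG and a difference of -0.66 ± 0.052, which was not called (limma adjusted p = 0.0768). Dnajb2, mutated in inherited motor neuropathy, was at -0.64 ± 0.039, Dnajb4 at -0.74 ± 0.10 and Dnajb6, a suppressor of polyglutamine aggregation, at -0.32 ± 0.50, none of them called. With normexp or an intensity trend Dnajb1, Dnajb2 and Dnajb4 were called lower, and after centring on G+C content Dnajb6 was. The median of the list was -0.64. The lowest DNAJB genes were Dnajb3, -1.56 ± 0.15, and Dnajb12, -1.34 ± 0.46 (limma adjusted p = 0.00927 and 0.0197), and the call of Dnajb12 was lost without either CPEB2 IgG array and without control IgG array 1. Dnajb8 was at -0.19 ± 0.30 without a call.

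Of the J-domain proteins of synapses and clathrin coats, 1 of 3 was called. Dnajc6 encodes auxilin, which recruits HSC70 to clathrin-coated vesicles in neurons. It gave 145 and 119.9 after CPEB2 IgG against 619.8 and 617 after control IgG and was 4.52-fold lower with CPEB2 IgG, -2.17 ± 0.23 (limma adjusted p = 0.00583). Dnajc5 encodes the cysteine string protein of synaptic vesicles, the partner of HSC70 in keeping SNAP25 folded. Its brightest probe gave 111665 and 101984 after CPEB2 IgG against 124963 and 100122 after control IgG, with overlapping arrays and a difference of -0.015 ± 0.091 (95% interval -0.62 to 0.59). Further upstream, other detected Dnajc5 probes gave -1.92 and -2.03, and with its probes averaged Dnajc5 was at -1.32 and called lower. Dnajc13, an endosomal J-domain protein, was at 0.92 ± 0.51 without a call (limma adjusted p = 0.0579), and was called without CPEB2 IgG array 1. Dnajc7, a co-chaperone that binds both HSP70 and HSP90, gave 12989 and 21394 after CPEB2 IgG against 14996 and 21148 after control IgG, overlapping between the antibodies, with a difference of -0.042 ± 0.12.

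The 5 J-domain genes of the nuclear and RNA list held 1 higher and 1 lower call, with a median of -0.10. These shares, 20% each, were close to the 21.2% and 20.4% over all genes tested. Dnajc8, which associates with splicing factors, was at 1.08 ± 0.22 (limma adjusted p = 0.0243), and Dnajc9, a histone co-chaperone, was at -1.16 ± 0.080 (limma adjusted p = 0.0184). The other detected Dnajc8 probes gave -0.15 and 0.14, and with its probes averaged Dnajc8 was at 0.36 and no longer called. Dnajc8 lost its call without CPEB2 IgG array 2 or either control array, and Dnajc9 without either control array. Beyond the lists, and named after their values were seen, Dnajc16 gave 929 and 1367 after CPEB2 IgG against 340.2 and 329 after control IgG and a difference of 1.81 ± 0.39 (limma adjusted p = 0.00855), and Dnajc24, which serves diphthamide synthesis, was at 0.88 ± 0.18 (limma adjusted p = 0.0411) and lost its call whichever of the 4 arrays was left out. The sixth lower DNAJC gene was Dnajc12, a co-chaperone of the aromatic amino acid hydroxylases, at -1.19 ± 0.064, whose call was lost without either control array. The DNAJC genes not described singly, Dnajc2, Dnajc4, Dnajc5b, Dnajc17, Dnajc21, Dnajc27 and Dnajc28, lay between -0.73 and 0.49 without a call.

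None of the small heat shock proteins was higher. Hspb3, known from muscle and motor neurons, gave 88.9 and 80.6 after CPEB2 IgG against 452 and 408 after control IgG, a difference of -2.29 ± 0.040. Hspb2 gave 55.9 and 47.5 after CPEB2 IgG against 184 and 179.6 after control IgG, a difference of -1.76 ± 0.19. In both genes all CPEB2 IgG signals lay below all control signals (limma adjusted p = 0.00542 and 0.00743). Hspb8, which works with Bag3 in selective autophagy, was lower at -0.87 ± 0.093 (limma adjusted p = 0.0392), a call lost without CPEB2 IgG array 1 and without either control array. Hspb1, known as HSP27, gave 1532 and 1793 after CPEB2 IgG against 2019 and 1571 after control IgG, overlapping between the antibodies, with a difference of -0.051 ± 0.37 that was -0.72 and called lower after centring on G+C content. Hspb6 was at 0.46 ± 0.55 without a call, and was called higher after that centring. Hspb9 and Hspb11 were at -0.78 ± 0.72 and -0.76 ± 0.19 without a call. With all arrays Hspb11 was called lower without scaling, with normexp, after centring on G+C content and under further settings. The class median after that centring was -0.72.

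Probes at different places in the same transcript did not always give the same difference. Of the 23 chaperone genes with more than 1 detected probe, 16 had probes more than 1 log2 unit apart, and in 0 of them did probes exceed 0.58 in opposite directions in both experiments. These counts were not made over all genes, so whether they are usual for the array is not known. For 15 transcripts with detected probes at least 100 bases apart, the most downstream probe had the higher difference in 11, 73.3%, with a median gap of 1.03. Over the 3767 such transcripts of all genes the share was 76.6% and the median gap 0.60, so the share of the chaperone transcripts was close to that of all genes.

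Dnajc10 showed the widest gap. Its probe from base 631 gave 255 and 438 after CPEB2 IgG against 324 and 272 after control IgG, overlapping, with a difference of 0.22, and the probe from base 3994 gave the 3.33 above. Both probes held 35% G+C. Dnajc5 was similar in shape and lower in level: probes from bases 736 and 1055 gave -1.92 and -2.03, and the brightest probe, from base 3704, gave -0.015. For Dnaja1 the upstream probe, from base 1393, was the brighter and gave -2.46, and the probe from base 3377 gave -0.71. Dnaja2 went from -0.19 to 0.83. Dnajc14 ran the other way, from 2.56 at the upstream and dimmer probe to 1.09. Dnajb5 had a second probe, on another transcript (ENSMUST00000084662), at 0.39 with signals of 201 and 215 after CPEB2 IgG against 179 and 151 after control IgG. The median G+C content was 40% in the upstream probes and 36.7% in the downstream ones, and its part in the gaps was not tested.

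**Figure D4:**
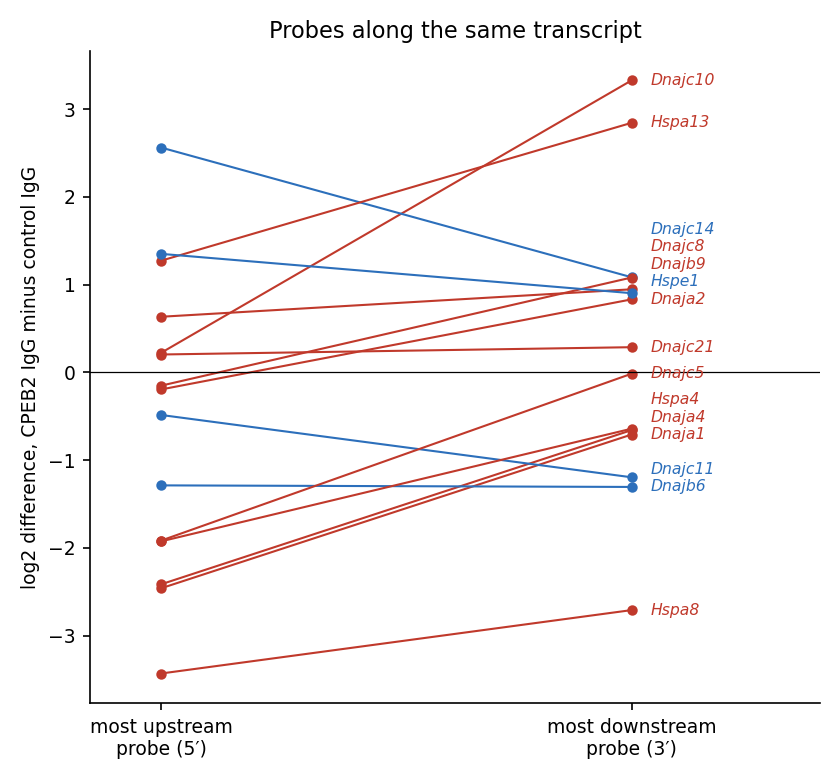
Log2 difference at the most upstream and the most downstream detected probe of 15 chaperone transcripts with probes at least 100 bases apart, 1 line per transcript, red where the downstream probe was higher and blue where it was lower. The steepest line, Dnajc10, runs from 0.22 to 3.33, and 11 of the 15 lines rise.

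The probes themselves were searched for the CPE, as UUUUAU or UUUUAAU, read in the sense of the transcript. It was in 8 of the 116 chaperone probes, 6.9%, and in 5.21% of the 33256 probes with a gene symbol, and on the opposite strand in 9.48% and 7.76%. The sense matches at called genes are shown as 30 bases of the probe, with T for U and the element in capitals, because they place a CPE within the measured stretch.
Dnajb5, within chr4:42971494-42971553 of mm9, plus strand, difference 2.70: gcccctgaatgtTTTTATagtagttttttg
Dnajc25, within chr4:59038364-59038423, plus strand, difference 2.23: gtcttcaaaataccttgtgggTTTTATtca
Hspe1, within chr1:55148026-55148085, plus strand, difference 0.90: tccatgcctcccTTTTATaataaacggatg
Hspa2, within chr12:77507769-77507828, plus strand, difference -1.69: gaaagcttgaattgtttatTTTTATgtact
Dnajb5, Dnajc25 and Hspe1 were higher with CPEB2 IgG and Hspa2 was lower. A probe covers 60 bases of a transcript, and the other matches lay in a second Hspe1 probe and in probes of Dnajc2, Dnajc18 and Hspb11, genes without a call. A CPE elsewhere in these or other transcripts was not looked for, and a match is a description, not a binding site.

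Folding genes outside the name rule were grouped in lists by function, of which 49 genes were tested, 6 were higher and 24 lower, with a median of -0.58. These shares were 12.2% and 49.0%, against 21.2% higher and 20.4% lower over all genes tested. The latter shares also apply beside the counts of the single lists below, which were not tested against them. The higher count was 12 without CPEB2 IgG array 1 and 14 after median centring. The ER lectin chaperones and disulfide isomerases had 3 of 6 higher and 0 lower, with a median of 1.02. Pdia6, a disulfide isomerase, was at 2.50 ± 0.23 with signals of 10602 and 16128 after CPEB2 IgG against 2230.5 and 2594 after control IgG, P4hb, the canonical isomerase, at 1.63 ± 0.059 and Calr, the glycoprotein chaperone calreticulin, at 1.23 ± 0.11 (limma adjusted p = 0.00542, 0.00807 and 0.0158). The ERSE was in 3 of these 6 promoters, those of Pdia6, Calr and Canx, shown as above on GRCm38.p6.
Pdia6, chr12:17266485-17266514, plus strand: cagagaCCAATGAAAGGCGGCCACGgcgtg
Calr, chr8:84847069-84847098, plus strand: tatgggCCAATGAGGGTCGACCACGcgttg
Canx, chr11:50325795-50325824, minus strand: tattgaCCAATCACCACGCTCCACGaagaa
Canx, the membrane-bound lectin calnexin, was at 0.69 ± 0.18 without a call (limma adjusted p = 0.0749).

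Of the HSP90 co-chaperones 7 of 12 were lower and 1 higher, with a median of -0.90 (-0.85 after centring on G+C content). Unc45a, a myosin chaperone, was at -2.49 ± 0.15, Cdc37, which brings kinases to HSP90, at -2.43 ± 0.085 with signals of 6298 and 5063 after CPEB2 IgG against 34511 and 28917 after control IgG, and Sugt1 at -2.41 ± 0.043, whereas Cdc37l1 was higher at 1.24 ± 0.32. Of the HSP70 co-chaperones and nucleotide exchange factors 7 of 14 were lower and 2 higher, with a median of -0.90 (-0.53 after that centring). Without the ER and mitochondrial members of that list, 4 of 10 were lower (Bag3, Bag6, Hspbp1 and Stub1) and 1 higher. Bag6, which guards membrane proteins in the cytosol, was at -2.47 ± 0.13, Stub1, the ubiquitin ligase CHIP that marks chaperone clients, at -2.29 ± 0.30 and Hspbp1, an exchange factor, at -2.16 ± 0.48. The 2 higher genes were Hyou1, the exchange factor of BiP in the ER, at 2.12 ± 0.31, and Bag2, an inhibitor of CHIP, at 2.04 ± 0.030. Sil1, the other ER exchange factor, was lower at -1.56 ± 0.066.

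All 5 listed mitochondrial chaperones and proteases outside the name rule were lower, with a median of -1.83. They ran from Trap1, the mitochondrial HSP90, at -2.46 ± 0.025 to Clpx at -1.04 ± 0.11. The list of prefoldin, which hands actin and tubulin to CCT, and chaperonin partners had 2 of 7 tested genes lower and 0 higher. The lower genes were the prefoldin genes Pfdn1 at -1.79 ± 0.34 and Pfdn5 at -1.61 ± 0.14. Uncalled were the prefoldin genes Pfdn2 at -0.57, Vbp1 at -0.013 and Pfdn4 at 0.93, and the partners Pdcl3 at 1.20 and Txndc9 at -0.033. Over the whole list the median was -0.033, or -0.68 after centring on G+C content. Of the heat shock transcription factors Hsf1 was lower at -0.88 ± 0.22, Hsf4 at -1.62 ± 0.29, and Hsf2 was at 0.91 ± 0.77 without a call (limma adjusted p = 0.0428, 0.00957 and 0.0945). Cryab, a small heat shock protein of glia under another name, was lower at -1.05 ± 0.43 (limma adjusted p = 0.0359), and Cryaa was not called.

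**Figure D5:**
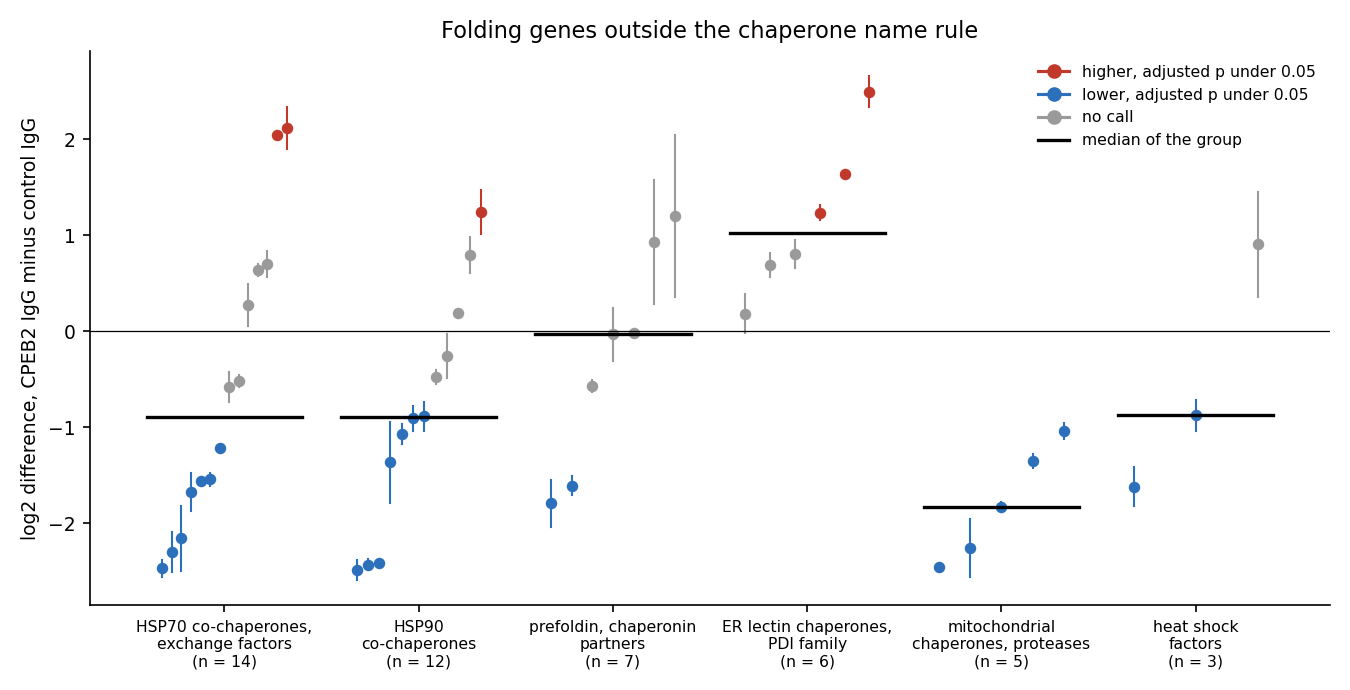
Log2 difference of folding genes from 6 lists outside the chaperone name rule, 1 point per gene with a line joining the values of the 2 experiments and a black bar at the median of each list. The ER list lies above 0, with 3 of 6 genes called higher, and all 5 mitochondrial genes lie below -1.

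The study selected transcripts by raw signal, fold enrichment and a CPE in the 3′-UTR. Its limits of 1000 on signal and 1.5 on fold were applied here to the mean fold and to at least 1 array of the higher antibody, at any probe, which are choices made here, and without the CPE. By them 15 chaperone genes were higher and 25 lower with CPEB2 IgG, 18.8% and 31.2% of the 80. Over all genes these thresholds gave 13.9% higher and 11.4% lower. Of the 15 genes 11 were also among the 13 that limma called higher, and of the 25 genes 16 were among the 26 called lower. The signal threshold left out 10 lower calls whose control signals were under 1000, Cct6a, Cct6b and Hspa1a among them, and 9 genes that passed in this direction were not called, Hsp90ab1 and Dnajb1 among them. The thresholds admitted 4 genes that limma did not call higher: Hspd1 by its only probe, and Dnaja2, Dnajb14 and Dnajc19, whose brightest probe was below 0 and another probe above. Dnajc25 and Dnajc14 were called higher by limma and stayed below a signal of 1000.

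Markers of brain cell types were measured on the same arrays. The summed signal of 6 neuronal markers was 94856 and 93057 on the arrays of CPEB2 IgG and 99820.4 and 105071 on those of control IgG. That of 6 astrocyte markers was 62316 and 52653 against 244748 and 198427, with 2 markers called higher and 3 lower. Aldoc, an aldolase, carried that direction: without it the sum of the other 5 was 32177 and 29936 against 19255 and 14668. Slc1a3 alone gave 28729 and 26888.5 against 3302 and 2133, the larger part of the CPEB2 IgG sum. Gfap and Aldh1l1 went the other way, Aldh1l1 at 1007 and 600 against 12652 and 9607. The sums were 61862 and 58376 against 77344 and 58947 for oligodendrocytes, 7717 and 6724 against 12654 and 10812 for microglia, and 4608 and 3342 against 7061 and 5911 for endothelium. Of the oligodendrocyte markers 0 of 6 were higher and 3 lower, of the microglial markers 1 of 6 was higher and 3 lower, and of the endothelial markers 0 of the 4 tested were higher and 1 lower, Tek having no probe that passed. Both antibodies of an experiment met the same lysate, so these sums compare recovered RNA and are not counts of cells. The part of the marker RNAs in the differences of the chaperone genes was not tested.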

How the data were processed

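RNA recovered with CPEB2 IgG or control IgG was labelled with Cy3 and hybridised to mouse 8x60K expression arrays, 2 per antibody. The description of these CPEB2 arrays says CPEB3 IgG; their titles, the protocol and the paper say CPEB2, which was followed. The authors deposited scanner output of Agilent Feature Extraction 10.5.1.1 per the file headers, with background-corrected spot intensity and no normalization between arrays, and probe positions are on mm9. Control spots, non-uniform spots and population outliers were removed, and 66 probes lacking a value on an array went with them, leaving 55615. From each array's log2 values its 75th percentile was subtracted. Each gene was represented by its brightest probe among those well above background on at least 2 arrays. limma 3.58.1 (R 4.3.3) compared the antibodies within experiments (the replicate block), which rests on the lysate having been divided between the antibodies; deviations of arrays of an experiment correlated at 0.20 over genes. That fit leaves 1 residual degree of freedom per gene, and p-values measure the spread between these arrays. In simulated data it called none of the changed genes where few had changed and most where many had. Tables and figures were made with Python 3.11.15, numpy 2.4.6, pandas 2.3.3 and matplotlib 3.10.9. Members and lists were chosen with earlier results of these data known. Genes named were all of the smaller classes, set DNAJB and DNAJC genes, and the 2 largest calls in each direction per class. Other DNAJC and list genes were named after their values were seen. Promoter sequences are from RefSeq, GRCm38.p6. Alternatives covered scaling, background correction, probe choice, filters, the block, thresholds and each array or experiment left out.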

Additional observations from a re-analysis of the deposited data

How the results depend on the processing

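Of the 13 higher and 26 lower calls among chaperone genes, 7 and 19 remained in every fit run; these include the 8 CCT genes other than Cct6b, Hspa8, Hspa1a, Hsp90aa1, Dnaja1 and Dnajc6 on the lower side and Hspa5, Hspa13, Dnajb5, Dnajb11, Dnajc10, Dnajc16 and Dnajc25 on the higher side. Without the replicate block, 12 were higher and 31 lower. With no filter on dim probes, 7 were higher, and 4 of the ER list were higher. Leaving out an array gave 7 to 14 higher chaperone genes, 4 to 7 higher ER genes and 4 to 12 higher and 16 to 21 lower genes of the other folding lists, in fits without the block where a lone array was assumed to vary like the rest. The split of calls over all genes moved from 50.9% higher to 61.2% under median centring, where the median of all genes was 0.11 in place of -0.11, and chaperone calls were 15 higher and 24 lower. The other folding lists then held 14 higher genes, as with normexp, and 12 with detection on all 4 arrays and 13 with an intensity trend. With normexp 5 mitochondrial list genes were lower, and dim genes were nearer 0, with Hspa1a at -2.26, Cct6a -2.53, Cct6b -0.15, Hspb2 -1.06 and Hspb3 -1.65. With probes averaged Dnajb5 was at 1.55, Dnajc10 1.78 and Dnaja1 -1.58. The causes were not tested.

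Class medians moved by more than the SD between the experiments as follows. With quantile normalization CCT was at -2.79, DNAJA -0.83, DNAJB -0.54 and DNAJC 0.10. With median centring HSP70 was at -0.19, CCT -2.63, small HSP -0.55, DNAJA -0.49, DNAJB -0.24, DNAJC 0.20 and ER 1.44. Without scaling CCT was at -2.91 and DNAJB at -0.52. With the percentile taken over probes detected on all arrays CCT was at -2.97, DNAJA -0.83 and DNAJB -0.57. With G+C bins HSP70 was at -0.69, HSP90 -0.30, HSP60 and HSP10 0.51, CCT -2.58, DNAJA -1.38, DNAJB -0.34 and DNAJC 0.20. With normexp CCT was at -2.53, and with no filter at -2.72. With probes averaged DNAJA was at -1.16, DNAJB -0.66, DNAJC 0.0064 and ER 1.61.

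With an array or an experiment left out, the class medians were -0.70 to -0.25 for HSP70, -2.89 to -2.78 for CCT chaperonin, -0.63 to -0.26 for DNAJB, -0.041 to 0.27 for DNAJC and 1.11 to 1.52 for ER list. Single genes whose sign changed were Hspb1 from -0.32 to 0.21, Dnaja2 from -0.51 to 0.13, Dnajb6 from -0.78 to 0.14, Dnajc5 from -0.14 to 0.11, Dnajc7 from -0.40 to 0.32, Dnajc19 from -1.45 to 0.98 and Dnajc1 from -0.13 to 0.24, none of them called with all arrays.

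Uncalled genes near 0 changed sign. Under median centring Hspa9 was at 0.15, Hspb1 0.18, Dnaja2 0.033, Dnajc5 0.21 and Dnajc7 0.19. With G+C bins Hspa9 was at 0.13, Dnajc5 0.15 and Dnajc19 0.070, and with quantile normalization Dnajc5 was at 0.11 and Dnajc7 0.19. With probes averaged Dnaja2 was at 0.32 and Dnajc19 at 0.53, and with the percentile over probes detected on all arrays Dnajc1 was at -0.052.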
